A study of Homo sapiens with 9 samples.

Results

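Chromatin accessibility around 10 genes of the cell surface was described in MDA-MB-231, a human triple-negative breast cancer (TNBC) cell line of mesenchymal character. The genes were chosen by name, as surface genes known to be high in mesenchymal TNBC cells, and are EGFR, AXL, MET, CD44, CAV1, ITGB1, ITGA6, EPHA2, F3 and CD274, out of 20033 protein-coding genes. Not all of them are receptors, since CAV1 encodes a scaffold of the inner membrane face and CD274 encodes a ligand. Accessibility was measured by ATAC-seq, an assay that tags open DNA with sequencing adapters by means of a transposase, Tn5. Of the 9 libraries, 2 came from cells with a control hairpin (shCtrl), 2 from cells with shEZH2, 2 from cells with shE2F1, and 1 each from cells with shSUZ12, with DMSO and with GSK126. EZH2 and SUZ12 are subunits of Polycomb repressive complex 2, which methylates lysine 27 of histone H3. E2F1 is a transcription factor of the cell cycle, and GSK126 inhibits the methyltransferase of EZH2.

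All knockdown groups, shCtrl included, were transduced with lentivirus for 24 h and then kept in puromycin at 2 μg/ml for 72 h, whereas the GSK126 cells were treated for 72 h, and no hairpin is named for them or for DMSO. One hairpin was used per target, and the replicates were not described as separate cultures, so their spread may be technical. The DMSO library carries the treatment label WT. The deposited list of the second shEZH2 library was the shortest, with 58626 peaks, and that of the second shE2F1 library the longest, with 85812. The most frequent background at a summit, which follows depth, was 1.41 and 2.18 tags in these libraries, the lowest and highest of the 9. The lists carry no read counts per region. Marker promoters were checked for the cell type. The mesenchymal breast cancer markers VIM, ZEB1, FN1 and CAVIN1 each had a promoter peak in every library, against 4 of 8 luminal markers and 0 of 4 markers of blood and endothelium. Of the other luminal markers, GATA3 had a peak in no library, ESR1 and CDH1 in 8 and FOXA1 in 7, and the luminal EPCAM promoter had a median percentile of fold enrichment within its list of 75.8, above those of the 4 mesenchymal markers named. Promoter peaks alone thus did not separate the mesenchymal from the luminal list. A promoter peak marks open chromatin, not expression.

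EGFR, MET, AXL and EPHA2 are receptor tyrosine kinases, which dimerise or cluster when a ligand binds and then signal to growth and migration. ITGB1 and ITGA6 are integrin subunits that hold cells to the extracellular matrix, and CD44 is the receptor for the matrix polysaccharide hyaluronan. F3 encodes tissue factor, the starter of the clotting cascade, and CD274 encodes PD-L1, which restrains T cells. Accessible sites far from a promoter are often enhancers, and in mesenchymal breast cancer cells many of them are bound by AP-1, a dimer of FOS and JUN proteins whose best known site reads TGAGTCA or, on the other strand, TGACTCA.

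The strongest distal site of each gene was read in GRCh38 for TGANTCA within 100 bp of the summit, because it is the most enriched of that gene. A match was found for 7 of the 10 genes, AXL, MET, CD44, CAV1, ITGB1, ITGA6 and F3. No match occurred in that window at the strongest sites of EGFR, EPHA2 and CD274. The share over the strongest sites of all genes was not counted, so 7 of 10 has no background. The plus strand is printed, with the match in capitals.
AXL, chr19:41176366-41176392: cagaaccccaTGACTCAggcgtttgaa
MET, chr7:116716807-116716833: catcaccttgTGAATCAccagtgctca
CD44, chr11:35214894-35214920: ctcatggatcTGAATCAgatggtgagt
CAV1, chr7:116577210-116577236: tgtgactttgTGACTCAccctttatca
ITGB1, chr10:32980649-32980675: cacatcacaaTGAGTCAcgtgctctgt
ITGA6, chr2:172442225-172442251: ctcaggccacTGACTCActctgcttgg
F3, chr1:94579983-94580009: ctagaatggcTGAGTCAtccaaacaac
The match nearest the summit is printed. At MET it is the only match and reads TGAATCA, which is not the best known AP-1 site. CD44 has TGAATCA nearest the summit and TGAGTCA as its second match, and ITGA6 has TGACTCA at both of its 2 matches. Over all distal sites of the members the share with TGANTCA was no higher than elsewhere, at 63 of 191 sites (33.0%) against 34.8% of the 103892 distal regions of the genome. Among sites with a peak in all 9 libraries it was 36 of 75 (48%) for the members and 45.6% for all distal regions. A match is a description of letters, not of a bound factor.

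Promoters were read from the RefSeq table of GRCh38.p14, which holds 250 bases before and 50 after each start and had an entry for all 10 genes. The GC box GGGCGG, searched on both strands, was in 10 of 10 member promoters and in 59.2% of 15345 promoters. TATAAA was found for 2 members, ITGA6 and F3, and in 9.63% of promoters. TTTNNCGC, a pattern looser than the E2F site, was found for MET alone and in 8.97% of promoters. Read as TTTNNCGC, the MET match has C and T at the free positions, where the E2F site has only C or G. TGANTCA was found for F3 alone, with 2 matches, and in 5.74% of promoters. These stretches are shown on the strand of the gene because they are where the member promoters differ from one another, with the match or its reverse complement in capitals.
MET, TTTNNCGC, chr7:116671986-116672013: cgcagccaggGCGAGAAAacttctccac
ITGA6, TATAAA, chr2:172427294-172427319: tgcacttctcTTTATAacgggtagta
F3, TATAAA, chr1:94541772-94541797: ccgccggcccTTTATAgcgcgcgggg
F3, first TGANTCA, chr1:94541966-94541992: gtggcgcggtTGAATCActggggtgag
F3, second TGANTCA, chr1:94541953-94541979: atcactggggTGAGTCAtcccttgcag
Both TATAAA matches lie on the strand opposite to the gene, whose own strand reads TTTATA there. They began 32 bases before the RefSeq start of ITGA6 and 28 before that of F3. The RefSeq start of ITGA6 lies upstream of the Ensembl start used for accessibility below.

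All 10 members had a peak within 1 kb of the transcription start site (TSS) of the Ensembl canonical transcript in all 9 libraries, as did 12030 of the 20033 protein-coding genes (60.1%). Their promoters were nevertheless of low enrichment. The measure is the fold enrichment of the summit over its local background, given as a percentile within its own list, where 100 is the most enriched peak. The median over the 10 members was 44.4, and over all genes with a promoter peak in every library it was 78.5. Of 12023 such promoters, AXL lay above 2.89%, EPHA2 above 3.92% and CAV1 above 9.85%, whereas the highest member, MET, lay above 46.2%. All 10 members were thus below the median of promoters with a constant peak. The order rests on the fold enrichment. Ranked by −log10 p, a choice made once the values were known and one that also follows the number of tags, the median was 83.3 for the members and 87.1 for all such promoters. F3, at 94.6, then lay above 74.3% of promoters, CAV1 at 90.5 above 59.7%, AXL at 78.8 above 33.4%, and CD274, at 57.2, was the lowest member.

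By fold enrichment the levels were ordered from AXL to MET. AXL, the receptor of GAS6, on chromosome 19 with its TSS at 41219223, had a median percentile of 18.1 over the 9 libraries, with values from 0.807 to 24.3. EPHA2, an ephrin receptor on chromosome 1 (16156069), had a median of 21.8 and a range from 8.10 to 42.2. These neighbours overlapped. CAV1 on chromosome 7 (116525036) had a median of 37.7 and ranged from 26.9 to 49.1. In 3 libraries, the first of shCtrl, the first of shE2F1 and DMSO, the strongest CAV1 summit lay about 1.2 kb after the TSS (from 1174 to 1189 bp), and in the other 6 it lay upstream, at -245 to -230 bp.

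EGFR, on chromosome 7 (55019017), had a median of 43.95 and the widest range of the receptor kinases, from 16.1 to 63.6. CD44 on chromosome 11 (35139171) had a median of 44.4 with values from 22.0 to 62.3, and ITGA6 on chromosome 2 (172427586) had a median of 44.5 with values from 32.3 to 60.3. The ranges of CAV1, EGFR, CD44 and ITGA6 overlapped, and their order is not established beyond the spread of the libraries. F3 on chromosome 1 (94541759) followed with a median of 51.8, and CD274 on chromosome 9 (5450542) with 61.4. ITGB1 on chromosome 10 (32958230) had a median of 71.9 and stayed between 64.9 and 83.6. MET on chromosome 7 (116672196), the receptor of hepatocyte growth factor, had a median of 76.2 and the narrowest range, from 72.3 to 84.2. ITGB1 and MET also overlapped.

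**Figure D1:**
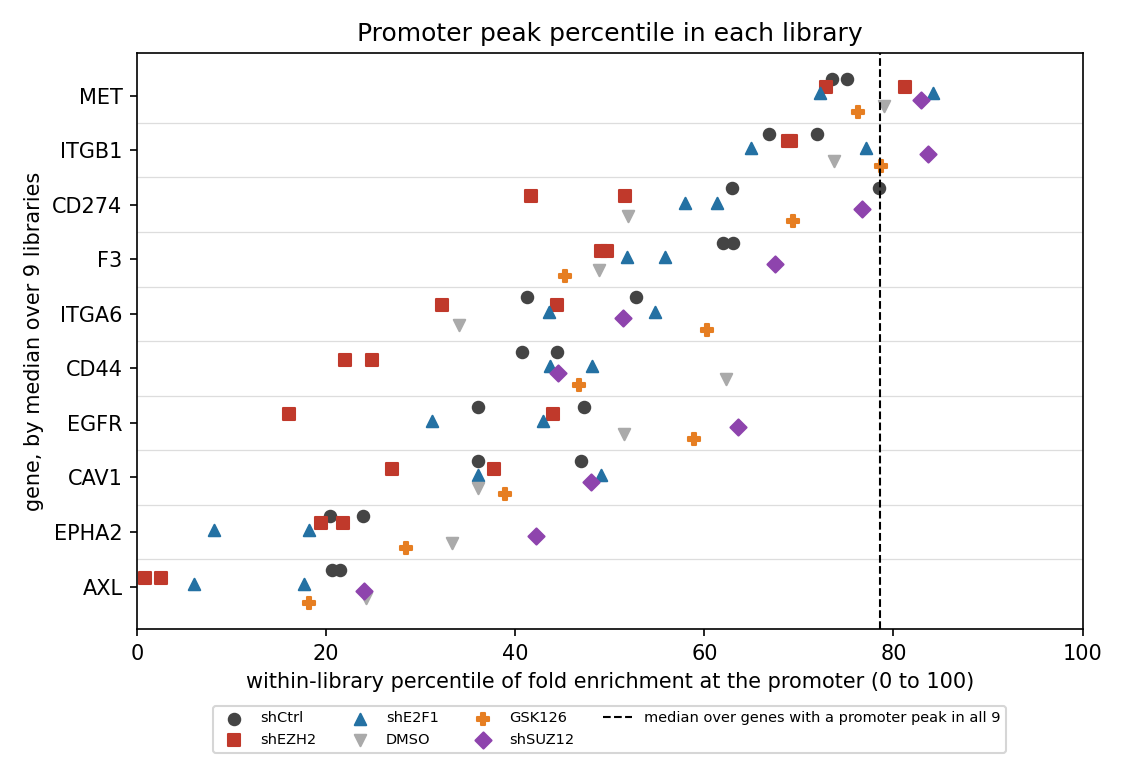
Within-library percentile of promoter fold enrichment (x axis, 0 to 100) for the 10 genes (y axis, ordered by median), with 1 point per library coloured by group and a dashed line at the median of all genes with a promoter peak in every library (78.5). AXL sat lowest, with both shEZH2 libraries at 0.807 and 2.56, and MET and ITGB1 sat highest.

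Promoters with the most similar pattern were named by the smallest root mean square difference over the 9 libraries. They were SMG6 for MET (2.81 points), SPTBN1 for F3 (3.20), PLSCR3 for ITGB1 (3.29), THRB for CAV1 (4.18), ENKD1 for AXL (5.09), LEF1 for EPHA2 (5.15), COPZ2 for CD44 (5.22), PTPRG for EGFR (5.62), DGAT2 for CD274 (6.58) and CIITA for ITGA6 (6.59).

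Distal sites were numerous around most members. A distal site was a merged region within 100 kb of the TSS that touched no promoter window of any protein-coding gene. EPHA2 had 34 and CAV1 33, more than 99.9% and 99.8% of genes, and F3 had 25, EGFR 22, AXL 21, MET 21, CD44 16, ITGA6 14 and ITGB1 11. CD274 had 4. The median was 21 for the members and 11 over all genes, and for sites with a peak in all 9 libraries it was 7.5 against 3. Counts above those of all genes were not particular to the members. The same 2 medians were 17.5 and 6.5 for their listed ligands and partners, and 14 and 4 for their listed relatives. They were 17.5 and 5.5 for the luminal markers, 16 and 5 for blood and endothelium, and 11 and 4 for the mesenchymal list. EPHA2 alone had 17 constant sites, with a peak in all 9 libraries, and EGFR had 10. CD274 was the exception, below the median of all genes on both measures, with 2 constant sites, 43.7 and 50.2 kb after its TSS.

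The 201 counts comprise 191 distinct sites, because CAV1 and MET lie 147 kb apart and share 10 sites, 30.3% of those of CAV1 and 47.6% of those of MET. Of the 191 sites, 53 lay in introns of the members, 7 touched a coding exon and 131 lay outside the gene. EGFR and ITGA6 held most of their sites inside the gene, 15 of 22 and 10 of 14, whereas F3 and CD274, the shortest members at 12.6 and 20.0 kb, held none. EGFR (192.6 kb) and MET (126.2 kb) are longer than the 100 kb window, so their sites after the TSS could only lie inside the gene. Over the whole gene EGFR held 28 sites and MET 12. Of the F3 sites, 19 lay upstream and 6 downstream. Constant sites were 75 of 191 (39.3%) for the members and 28.4% for all distal regions, and sites with a peak in a single library were 35 (18.3%) and 26.6%. By library, 51.3% to 73.8% of the member sites had a peak, and 41.2% to 66.6% of all distal regions. The second shEZH2 library, which has the shortest list, was lowest on both counts.

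**Figure D2:**
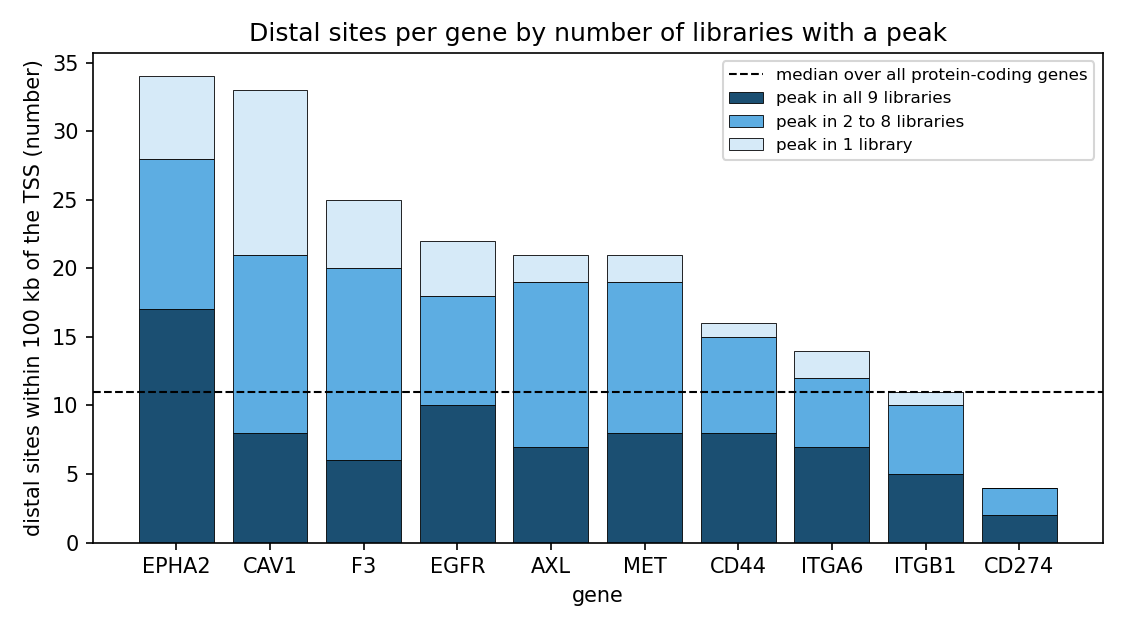
Number of distal sites within 100 kb of the TSS (y axis) per gene (x axis), stacked by the number of libraries with a peak, with a dashed line at the median of all protein-coding genes (11). EPHA2 and CAV1 had 34 and 33 sites, and 17 of the EPHA2 sites had a peak in all 9 libraries.

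The strongest distal site differed in level between the genes. For MET it was an intronic site 44.6 kb after the TSS (chr7:116716603-116717194), with percentiles from 93.3 to 99.96 in the 9 libraries and a mean of 98.6. For EGFR it lay 85.6 kb upstream (chr7:54932922-54934114) with a mean of 95.2, and for EPHA2 61.5 kb upstream (chr1:16216946-16217795) with a mean of 94.98. Each of these sites was above the promoter of its own gene. CAV1 had its strongest site 52.2 kb downstream (chr7:116576645-116577600, mean 93.8), which also lay in the window of MET. CD44 had it in coding exon 15 (chr11:35214509-35215262, mean 93.2). For F3 it lay 38.3 kb upstream (chr1:94579461-94580624, mean 92.9), and for AXL 42.9 kb upstream (chr19:41175750-41176789, mean 92.4). The strongest sites of ITGB1 (chr10:32980461-32981289, mean 74.5) and ITGA6 (chr2:172441819-172442814, mean 73.3) were lower, and that of CD274 (chr9:5500529-5501256, mean 53.0) was the lowest and lay below the CD274 promoter.

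**Figure D3:**
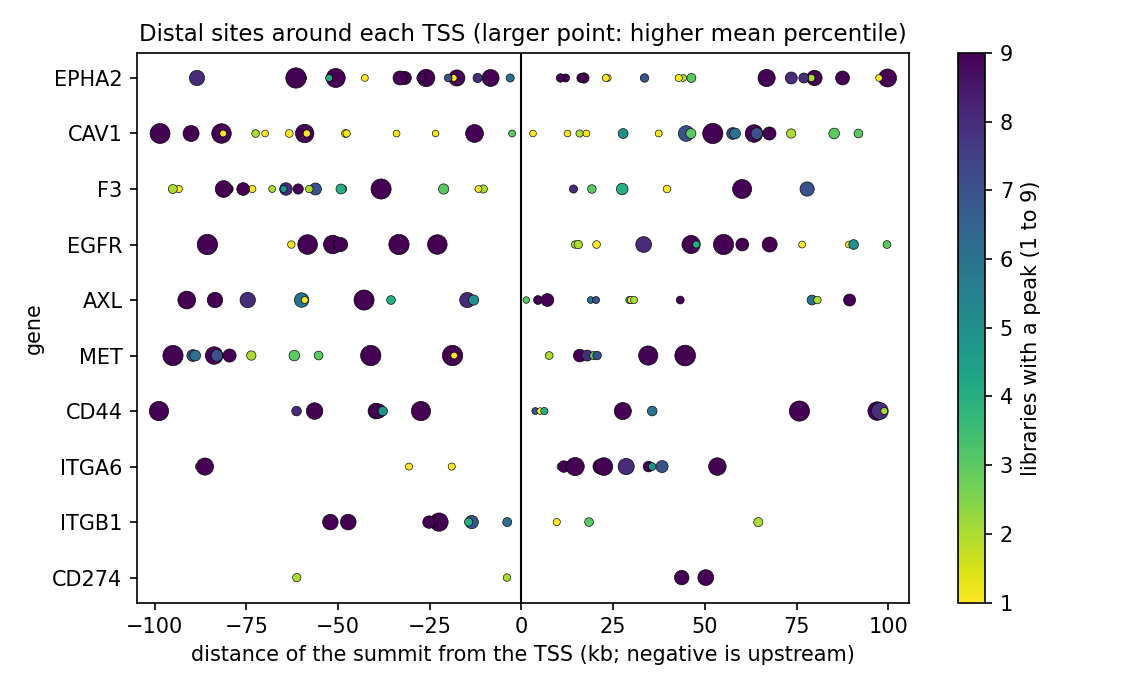
Distal sites of each gene (y axis) by distance of the summit from the TSS in kb (x axis, negative is upstream), coloured by the number of libraries with a peak and sized by mean percentile. CD274 had 4 sites, 2 of them with a peak in all 9 libraries, and the F3 sites lay mostly upstream.

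The first comparison asked whether EZH2 depletion changed these promoters. AXL, CD44, F3 and CD274 were lower with shEZH2, in that both knockdown percentiles lay below both shCtrl percentiles, and no member was higher. The background was 29.7% lower and 10.6% higher over 12231 promoters, so 4 of 10 lower is near what all promoters showed. The median difference was -10.4 points for the members and -2.58 for all promoters, and it turned to 2.36 and 1.30 points when all lists were cut to the same length. In a bulk library, fewer cells with an open promoter and less opening per cell cannot be told apart. No test was made on single genes, since with 2 libraries against 2 the smallest two-sided exact permutation p is 0.333.

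AXL stood out at the low end. Its percentile was 21.4 and 20.6 with shCtrl (21.0 ± 0.575, SD, n = 2) and 0.807 and 2.56 with shEZH2 (1.69 ± 1.24, SD, n = 2). Both shEZH2 values thus lay among the weakest peaks of their lists. The recovered tag number at the AXL summit was 135 and 169 with shCtrl and 62 and 67 with shEZH2, and its local background was 27.3 and 34.0 tags against 22.0 and 18.7. The summit tags were therefore lower relative to the local background as well as in number. Of all promoters, 6.58% had a more negative difference than the -19.3 points of AXL.

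CD274 had the largest difference of the members. Its percentile was 62.9 and 78.5 with shCtrl (70.7 ± 10.99, SD, n = 2) and 51.6 and 41.6 with shEZH2 (46.6 ± 7.01, SD, n = 2), a difference of -24.1 points that 3.47% of promoters exceeded downwards. The CD274 summits rested on 47 and 64 tags with shCtrl and on 35 and 26 with shEZH2, the fewest of the 4 lower genes, so these values are the least precise. CD44 had 40.7 and 44.4 with shCtrl and 24.9 and 22.0 with shEZH2. F3 had 62.0 and 63.0 with shCtrl and 49.1 and 49.8 with shEZH2. In both genes the gap between the groups was wider than the gap between replicates.

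The other members overlapped between shCtrl and shEZH2. EGFR had 36.1 and 47.2 with shCtrl and 43.95 and 16.1 with shEZH2, so only the second shEZH2 library was low. CAV1 had 36.1 and 46.9 against 37.7 and 26.9, and ITGA6 had 41.3 and 52.7 against 32.3 and 44.5. EPHA2 had 20.4 and 23.8 against 21.8 and 19.4, ITGB1 71.9 and 66.8 against 68.8 and 69.1, and MET 75.1 and 73.5 against 72.8 and 81.2. For these 3 genes the group means differed by at most 2.76 points.

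The count depended on the lengths of the lists. When each list was limited to its 58626 peaks with the highest −log10 p, AXL and CD274 remained lower with shEZH2, CD44 and F3 overlapped, and EPHA2 was higher, against a background of 14.4% lower and 23.9% higher. By the percentile of −log10 p the mean of AXL was 80.6 with shCtrl and 38.5 with shEZH2. In the equal-length lists it was 8.08 with shCtrl and 1.36 with shEZH2, and that of CD274 was 60.1 and 41.0. The differences of EGFR, CAV1 and ITGA6, which had no call, were negative with all peaks and positive with equal lengths. Leaving out a library can only add to these calls. Without the first shCtrl library 8 members were lower and 1 higher, where 47.5% and 18% of all promoters were, and without the first shEZH2 library 7 were lower and 1 higher, where 53.8% and 24.1% were.

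The same question was asked of E2F1. AXL, EPHA2, F3 and CD274 were lower with shE2F1 and no member was higher, against a background of 17% lower and 19.2% higher over 12513 promoters. The median difference was -1.77 points for the members and -0.07 for all promoters, and in equal-length lists it was 2.43 and 0.92. This comparison uses the same shCtrl libraries as that of shEZH2, so the 2 are not independent. AXL had 17.6 and 6.04 with shE2F1 (11.8 ± 8.20, SD, n = 2), and its replicates lay farther apart than its group means. EPHA2 had 8.10 and 18.2, below the 20.4 and 23.8 of shCtrl. F3 had 51.8 and 55.8 against 62.0 and 63.0, and CD274 had 61.4 and 58.0 against 62.9 and 78.5, so that the nearest CD274 values differed by little.

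The 6 other members overlapped with shE2F1. EGFR had 42.9 and 31.1, CD44 43.7 and 48.2, CAV1 36.1 and 49.1, ITGA6 43.6 and 54.8, ITGB1 64.9 and 77.1, and MET 84.2 and 72.3. The CAV1 value of 36.1 came from a summit 1174 bp after the TSS, and that of 49.1 from a summit at -230 bp. With a promoter of 500 bp on either side the CAV1 difference was -6.26 instead of 1.09 points, and the groups still overlapped. CD44, lower with shEZH2, thus lay at its shCtrl level with shE2F1, as values side by side. In equal-length lists EPHA2 and F3 remained lower, CD44 was higher, and AXL and CD274 overlapped, against a background of 15.4% lower and 22.3% higher. The members called higher were 3 without the second shCtrl library (34.9% of all promoters), 4 without the first shE2F1 library (43.9%) and 1 without the second (31.7%).

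**Figure D4:**
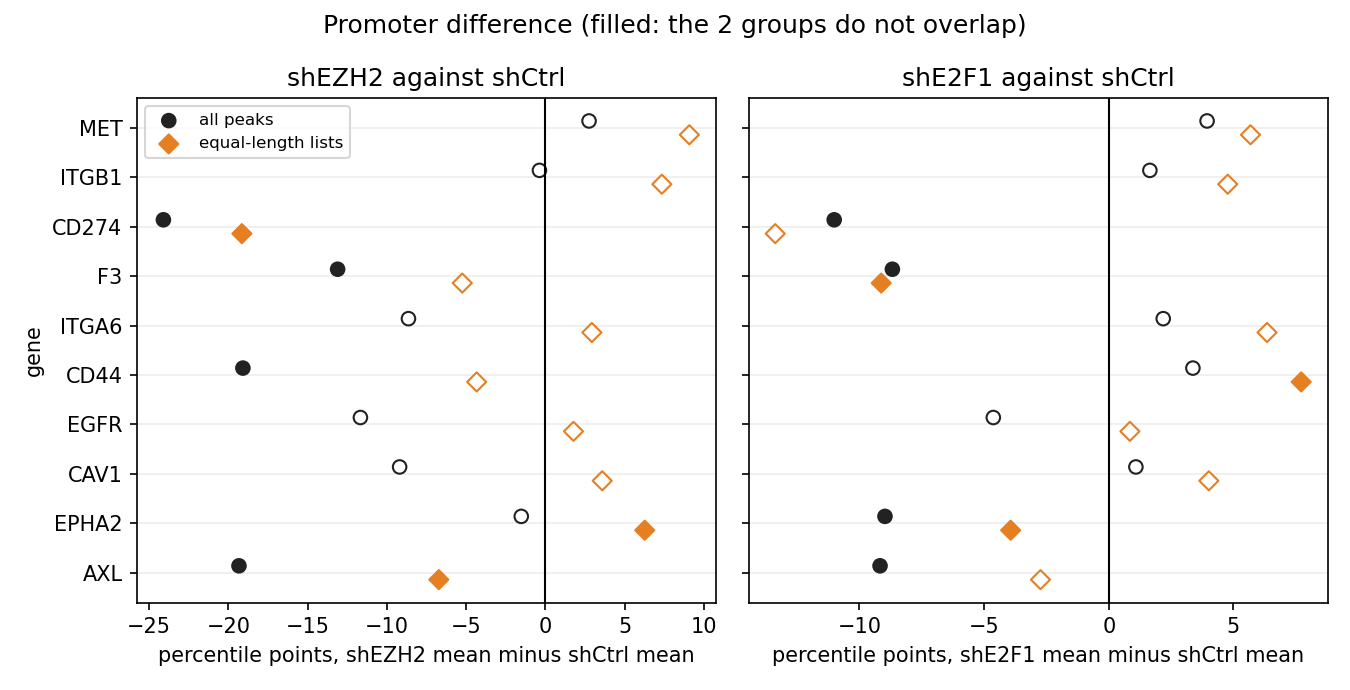
Mean promoter percentile of the knockdown minus that of shCtrl in percentile points (x axis) per gene (y axis), for shEZH2 (left) and shE2F1 (right), with all peaks (circles) and equal-length lists (diamonds), filled where the groups did not overlap. With shEZH2, AXL and CD274 were filled and below 0 in both, and EPHA2 was above 0 in equal-length lists only.

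The libraries of shSUZ12 and GSK126 have no replicate, so their differences have no replicate check. With shSUZ12, 8 members were above both shCtrl values (EGFR, AXL, MET, CD44, CAV1, ITGB1, EPHA2 and F3) and 0 were below, against a background of 52.6% higher and 19.2% lower. EGFR had 63.6, or 21.9 points above its shCtrl mean, and EPHA2 had 42.2, or 20.0 points above. ITGB1 had 83.6 against 71.9 and 66.8. AXL had 24.0 against 21.4 and 20.6, so the AXL promoter was not below shCtrl in this library. In equal-length lists all 10 members were higher, where 62.4% of promoters were. Without the first shCtrl library ITGA6 and CD274 were lower, where 35.6% of promoters were. By the percentile of −log10 p the counts were 5 higher and 3 lower (AXL, CD44 and F3), against 39.4% and 27.8% of all promoters.

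GSK126 was compared with DMSO by differences over 10 points. ITGA6 was higher (34.1 with DMSO and 60.3 with GSK126), as was CD274 (52.0 and 69.3), and CD44 was lower (62.3 and 46.8). The background was 6.87% higher and 15.4% lower over 12819 promoters. The ITGA6 difference of 26.3 points exceeded that of 99.5% of promoters. The DMSO library lay outside the shCtrl values for all 3 genes, below both for ITGA6 and CD274 and above both for CD44. By the percentile of −log10 p, CD44 differed by -4.58 points and had no call. AXL had 24.3 and 18.1, F3 48.9 and 45.3, EGFR 51.5 and 58.9, MET 79.0 and 76.2, CAV1 36.0 and 39.0, ITGB1 73.8 and 78.7, and EPHA2 33.3 and 28.4. None of these 7 passed 10 points. In equal-length lists EGFR also passed, with a difference of 13.6 points, where 13.4% of promoters were higher. With shCtrl in place of DMSO, 2 members were again higher and 1 lower, but of the 3 genes only ITGA6 kept its call. The shares over all promoters were not counted for this setting, so these counts have no background. The shCtrl means of CD274 (70.7) and CD44 (42.5) lay within 10 points of GSK126. Those of EGFR (41.7), which was then higher, and F3 (62.5), which was then lower, did not.

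Distal sites were then compared by presence of a peak. A site was gained with a knockdown when both of its libraries and neither shCtrl library had a peak, and lost in the reverse case. With shEZH2, 1 of the 191 sites was gained and 12 were lost, against a background of 0.81% gained and 6.39% lost, so the lost share of the members (6.28%) was that of all distal regions. The losses were unevenly spread. AXL lost 5 of 21 sites and F3 4 of 25, CAV1, ITGA6 and CD274 lost 1 each, and EGFR, MET, CD44, ITGB1 and EPHA2 lost none. Of 11198 genes with at least 10 sites, 2.14% had a lost share as high as the 23.8% of AXL.

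The most enriched of the lost sites was upstream of AXL, 59.9 kb from the TSS (chr19:41158947-41159527). Its percentiles were 84.6 and 42.2 with shCtrl and 88.0 and 67.9 with shE2F1, and it had no peak in either shEZH2 library. DMSO had 54.3, shSUZ12 47.2 and GSK126 no peak, so presence differed between the single libraries as well. The site was chosen for its absence with shEZH2. It carries TGAGTCA 1 bp from the summit. The strongest gained site of each knockdown and the strongest site lost with shE2F1 had no TGANTCA within 100 bp of the summit. Nor had the sites lost in both knockdowns, and 34.8% of all distal regions carried TGANTCA. The AXL site is shown as the lost site of highest level.
AXL lost site, chr19:41159278-41159304: acagacaccaTGAGTCAtggtgttagc
The other lost AXL sites were weaker, with shCtrl percentiles of at most 36.0, and the pair in coding exons (chr19:41239090-41239683 and chr19:41248307-41248824) had at most 8.12. At F3 the lost sites reached 65.5 and 58.1 with shCtrl (chr1:94514143-94514439, inside the neighbouring gene ABCD3). The gained site lay 3.95 kb upstream of CD274 (chr9:5446467-5446889), with 13.1 and 16.2 in the shEZH2 libraries and no peak in the other 7.

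The lost sites, too, depended on the lists. With equal-length lists 5 member sites were lost (3.76% of all distal regions), and AXL lost 1 of 17 and F3 1 of 18. With peaks of a −log10 q of at least 5, AXL lost 5 of 20 and F3 4 of 24. Leaving out a library relaxes the call. Without the first shCtrl library 32 sites were lost and 2 gained (15.4% and 1.57% of all distal regions), and without the second 21 and 5 (12.9% and 1.88%). Without the first shEZH2 library 26 were lost and 3 gained (14.2% and 2.31%). Without the second, which is the shallowest, 14 were lost and 10 gained (8.29% and 6.01%).

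With shE2F1, 3 of 191 sites were gained and 8 were lost, against 2.87% gained and 3.61% lost over all distal regions. F3 lost 3 sites. EGFR, ITGB1, ITGA6 and CD274 lost 1 each, and a site between CAV1 and MET was lost in the windows of both (chr7:116583027-116583420). That site had 33.7 and 23.7 with shCtrl, 29.5 and 22.7 with shEZH2, 18.5 with GSK126 and 41.7 with shSUZ12, and no peak with shE2F1 or DMSO. It was thus also missing in a library for which no knockdown is named. AXL, EPHA2 and F3 gained 1 each, and the AXL site (chr19:41183358-41183863) had 22.7 and 5.09 with shE2F1, 26.1 in the first shEZH2 library and 22.0 with shSUZ12. Without the first shCtrl library 6 sites were gained and 20 lost (4.36% and 10.5% of all distal regions), and without the second 10 and 17 (5.04% and 8.89%). Without the first shE2F1 library 12 were gained and 11 lost (12.4% and 4.9%), and without the second 7 and 20 (6.01% and 11.1%).

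In both knockdowns, 3 sites had a peak in each shCtrl library and in no library of shEZH2 or shE2F1, which is 1.57% of the member sites and 1.89% of all distal regions. One lies 19.2 kb downstream of the F3 TSS (chr1:94522369-94522661), with 30.8 and 32.8 in shCtrl and 6.42 with GSK126. Another is 63.6 kb upstream of F3 (chr1:94605298-94605552), with 3.70 and 0.702 in shCtrl and 2.54 with DMSO. The third lies 61.2 kb upstream of CD274, inside PLGRKT (chr9:5389150-5389536), with 24.5 and 34.6 in shCtrl and no peak in any other library. All 3 were short and weak in shCtrl, and because both comparisons use the same shCtrl libraries, they are not independent losses.

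**Figure D5:**
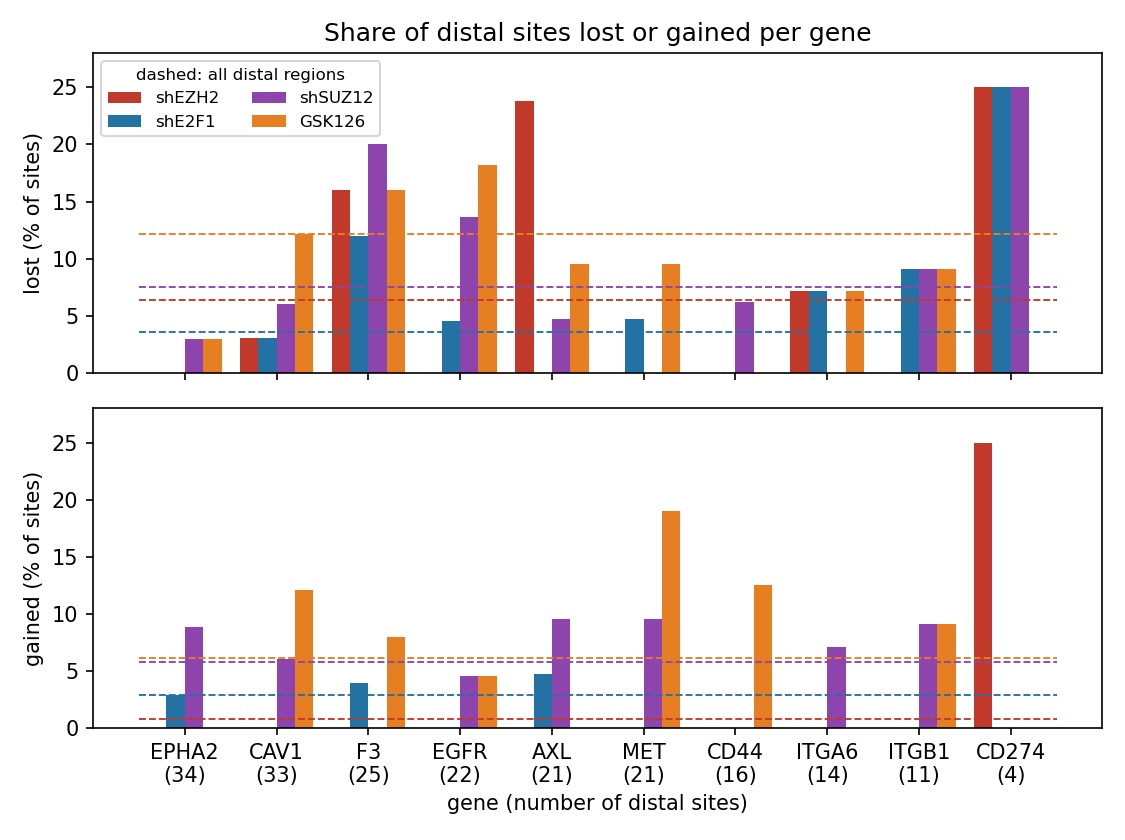
Share of the distal sites of each gene that were lost (top) or gained (bottom), in percent (y axis), per gene with its number of sites (x axis), for 4 comparisons, with dashed lines at the shares over all distal regions. AXL with shEZH2 (23.8%) and F3 in all 4 comparisons were above their dashed lines for losses, and so were other bars. Among these were EGFR with shSUZ12 (13.6%) and GSK126 (18.2%), and ITGB1 (9.09%) and ITGA6 (7.14%) with shE2F1. The knockdown comparisons share the shCtrl libraries, and each CD274 bar is 1 of 4 sites.

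With 1 library, shSUZ12 had 11 gained and 15 lost member sites, against 5.8% and 7.55% of all distal regions. F3 lost 5 of 25 sites and EGFR 3 of 22, and EPHA2 gained 3. In equal-length lists the totals were 6 (6.52% of all distal regions) and 8 (6.08%), and F3 lost 1 of 18. Without the first shCtrl library 35 sites were lost (16.8% of all distal regions), and without the second 26 were lost (14.5%) and 18 gained (9.61%). GSK126 against DMSO gave 11 gained and 17 lost sites, against 6.19% and 12.2%. EGFR, CAV1 and F3 lost 4 each, and MET and CAV1 gained 4 each. Some of the MET and CAV1 gains are the same sites, since their windows overlap. In equal-length lists 7 sites were gained (8.89%). With both shCtrl libraries in place of DMSO 3 were gained and 13 lost, and the shares over all distal regions were not counted there.

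Sites that were present in every library compared were ranked like the promoters. With shEZH2, 28 of 86 such member sites were lower and 11 higher, against 31.9% and 12% of all distal regions. The direction turned in equal-length lists, with 15 lower and 23 higher, against 18.9% and 22.3%. EPHA2 had 7 lower and 1 higher of 20 with all peaks and 3 lower and 6 higher with equal lengths. With shE2F1, 24 of 91 were lower and 14 higher, against 24.1% and 16.2%. EGFR had 5 higher and 2 lower of 11, and MET had 5 lower and 1 higher of 8. Some of the lower MET sites are also CAV1 sites. In equal-length lists 16 were lower and 14 higher with shE2F1, against 23.1% and 17.4%. EGFR then had 5 higher and 2 lower, and MET 2 lower and 1 higher. With shSUZ12, 28 of 99 were lower and 36 higher, against 43.9% and 27.4%, and in equal-length lists 18 were lower and 39 higher, against 37.5% and 33.4%. By the percentile of −log10 p the direction turned, with 45 lower and 22 higher, against 46.7% and 24.4%. With GSK126, 21 of 102 were lower and 9 higher by more than 10 points, against 27.5% and 16.6%, and in equal-length lists 13 were lower and 15 higher, against 22.2% and 21.8%. With all peaks, the members' shares with shEZH2 and shE2F1 were close to the background.

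The ligands and partners of the members were taken as a list. Of 16 promoters, 10 had a peak in all 9 libraries. Among the ligands of EGFR, TGFA, AREG, EREG, HBEGF and BTC did, and EGF had one in 4 libraries. GAS6, the ligand of AXL, had a peak in 5 libraries, and PROS1, listed beside it, had one in all 9. HGF, the ligand of MET, had none. EFNA1, an ephrin that binds EPHA2, had one in 6, as did HAS2, a hyaluronan synthase whose product binds CD44, and F7, the clotting factor that binds tissue factor. CAV2 and CAVIN1, partners of CAV1 in caveolae, TFPI, the inhibitor of the tissue factor pathway, and PDCD1LG2, which encodes PD-L2, had one in all 9. Constant promoter peaks were thus found at 5 ligand genes of EGFR and not at the ligand gene of MET.

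With shEZH2, 3 of these 10 promoters were lower (AREG, PROS1 and TFPI) and 2 higher (BTC and PDCD1LG2). AREG had 55.0 and 59.2 with shCtrl and 32.7 and 23.1 with shEZH2. With shE2F1, 2 were lower (PROS1 and TFPI) and 3 higher (TGFA, HBEGF and BTC), and HBEGF had 42.6 and 36.2 with shCtrl and 67.7 and 51.7 with shE2F1. Of 20 relatives of the members in the ERBB, TAM, MET, integrin and ephrin receptor families, 17 had a peak in all 9 libraries. Of the 17 present with shCtrl and shEZH2, 4 were lower (ITGB3, ITGA3, ITGA5 and EPHA1) and 1 higher (ITGA1). Of the 18 present with shCtrl and shE2F1, 4 were lower (ERBB3, ITGB3, ITGA3 and ITGA5) and 1 higher (ERBB2). ITGB3 had 61.4 and 50.3 with shCtrl, 29.9 and 10.9 with shEZH2 and 16.7 and 40.1 with shE2F1. These counts stand beside the 29.7% lower and 10.6% higher of all promoters with shEZH2, and 17% and 19.2% with shE2F1.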

How the data were processed

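ATAC-seq was done on 50000 cells per library with 7 PCR cycles. The authors aligned reads with Bowtie2, keeping up to 4 alignments per read, shifted them for the Tn5 cut and called peaks per library on GRCh38. The caller is not given in the sources used here. The deposited lists give a fold enrichment over local background (a ratio), the −log10 of p and q (lowest −log10 q 2), a score and the summit. These values are the authors'. Fold enrichment was ranked within each list, and the score was not compared between libraries. Fold and p together gave a whole number of summit tags, to within 0.01 in −log10 p, for at least 99.9% of peaks.

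Peaks overlapping by 1 bp were merged into 118719 regions. Promoters were 1 kb on either side of GENCODE v44 canonical TSSs. A promoter or site was lower or higher where the groups did not overlap, or, for GSK126, differed by over 10 points. No test was made on single features. A further marker of the mesenchymal list is not reported here. The regions named were each member's promoter and strongest distal site, sites gained or lost in both knockdowns and the strongest gained and lost site of each knockdown. The weaker lost AXL sites and the F3 site inside ABCD3 were singled out after their values were seen. So were the listed ligands and relatives with values, and the genes named for levels of distal sites. The members and lists were chosen with earlier results of these data known. On simulated lists, 200 of 200 gained, lost and lower features were found. These lists were copies of the first shCtrl list with small noise. Recovery therefore checks the code and not how the calls behave between lists of unequal length. Alternatives were equal-length lists, −log10 q of at least 5, other windows and ranks, shCtrl for DMSO, a replicate block and leaving out each library. Software was Python 3.11.15, numpy 2.4.6, pandas 2.3.3, scipy 1.17.1 and matplotlib 3.10.9.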

Additional observations from a re-analysis of the deposited data

Results flagged for a closer look

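Among the distal sites, 3 moved opposite ways from shCtrl in shEZH2 and shE2F1, in every library of both groups, and the difference between the groups was not tested. They are 3.8% of the 79 member sites with a peak in all 6 libraries, and 4.75% of all such distal regions moved opposite ways. The site upstream of CAV1 (chr7:116511484-116513102) had 70.3 and 68.5 with shCtrl, 76.9 and 77.1 with shEZH2 and 62.5 and 67.7 with shE2F1, and the shEZH2 mean was 11.9 points above that of shE2F1. At the site upstream of ITGB1 (chr10:32982300-32982696) the values were 20.8 and 28.9 with shCtrl, 11.6 and 7.55 with shEZH2 and 30.7 and 33.6 with shE2F1, a difference of -22.6 points. The site upstream of ITGA6 (chr2:172340289-172341471) differed most, by -34.3 points, with 74.9 and 69.6 for shCtrl, 51.4 and 40.7 for shEZH2 and 83.0 and 77.7 for shE2F1. It was also low with shSUZ12 (54.9) and lower with GSK126 (59.2) than with DMSO (71.5).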

How the results depend on the processing

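Of 180 values under alternatives, 117 stayed within 1.5 times the reported count and 63 did not, 40 of them on leaving out a library, which relaxes a call, and 13 with equal-length lists. A 50 kb window left 111 distal sites. Equal-length lists gave 2 promoters lower and 1 higher and 5 sites lost with shEZH2, 2 lower and 1 higher with shE2F1, 6 sites gained and 8 lost with shSUZ12, and 7 gained with GSK126. The percentile of −log10 p gave 3 lower and 5 higher promoters with shSUZ12 and 0 lower with GSK126. With a −log10 q of at least 5, 7 sites were gained with GSK126, and with shCtrl for DMSO 3 were.

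Leaving out each library gave 5 to 8 promoters lower and 0 to 1 higher, and 2 to 10 sites gained and 14 to 32 lost, with shEZH2. With shE2F1 it gave 4 to 6 lower, 0 to 4 higher, 6 to 12 gained and 11 to 20 lost, and with shSUZ12 0 to 2 lower, 8 to 10 higher, 15 to 18 gained and 26 to 35 lost.

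A replicate block on same-numbered libraries gave 3 promoters higher with shE2F1 and moved no other promoter count by over 1.5 times. The shares over all promoters were not counted under this block. The differences between replicates correlated across 12067 promoters at 0.0540 (shCtrl and shEZH2) and 0.0588 (shCtrl and shE2F1). These correlations cannot tell whether same-numbered libraries share a batch, which is not stated. Presence of a peak follows depth and list length, and the shallowest list, the second of shEZH2, limits every shEZH2 call.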
